A study of Mus musculus with 6 samples.

Results

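Complement is represented here by 9 genes: the chains of C1q (C1qa, C1qb and C1qc), the components C3, C4b and properdin (Cfp), the anaphylatoxin receptors C3ar1 and C5ar1, and Itgam, the alpha chain of complement receptor CR3. The genes were listed by name as complement components and their receptors, and all 9 were found among the 19848 genes of the RNA table. They were followed in immune cells from the brains of female C57BL/6 mice aged 12 weeks (young) or 72 weeks (aged). In each age, controls received vehicle and kept their gut microbiota, and the antibiotic group (ABX) received antibiotics that depleted it. Whole brains were processed one by one, enriched for immune cells on Percoll and combined into 3 pools per group, so a pool holds cells of more than 1 animal. RNA and surface antibodies were read in the same cells (CITE-seq), 13052 cells in all, 3263 per group. The young pools shared 1 well of the droplet instrument and the aged pools another, so age and well cannot be told apart, and the arm goes with the hashtags used.

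Complement is a cascade of plasma and tissue proteins that tags surfaces for removal. C1q recognises targets and starts the classical pathway, which cleaves C4 and then C3, while properdin stabilises the C3 convertase of the alternative pathway. The cleaved fragments C3a and C5a signal through C3ar1 and C5ar1, and fragments of C3 on a surface are bound by CR3, which on microglia takes part in the removal of synapses. In the brain microglia, the resident macrophages of the parenchyma, are a main source of C1q, and border-associated macrophages (BAM) of the meninges, perivascular spaces and choroid plexus carry it too.

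The C1q genes lie side by side on mouse chromosome 4 within 18719 bases (GRCm38.p6): C1qb at chr4:136880126-136886200, C1qc at chr4:136889801-136892936 and C1qa at chr4:136895916-136898844, all on the minus strand. C4b is at chr17:34728139-34743902, C3 at chr17:57203967-57228136, C3ar1 at chr6:122847140-122856157, C5ar1 at chr7:16246743-16259540, Itgam at chr7:128062640-128118491 and Cfp at chrX:20925454-20931555. The 250 bases before the start site are printed for 5 genes from RefSeq, because C1qb, C1qc and C3ar1 varied together over cell types, whereas C3 and Itgam each followed another order. The windows are chr4:136886201-136886450 for C1qb, chr4:136892915-136893164 for C1qc, chr6:122856158-122856407 for C3ar1, chr17:57228137-57228386 for C3 (these 4 on the minus strand) and chr7:128062390-128062639 for Itgam (plus strand). Capitals mark matches, on either strand, to the core of the PU.1 motif (GAGGAA), a MAF half-site (TGCTGA) or a C/EBP motif (TTGCNNAA).
C1qb: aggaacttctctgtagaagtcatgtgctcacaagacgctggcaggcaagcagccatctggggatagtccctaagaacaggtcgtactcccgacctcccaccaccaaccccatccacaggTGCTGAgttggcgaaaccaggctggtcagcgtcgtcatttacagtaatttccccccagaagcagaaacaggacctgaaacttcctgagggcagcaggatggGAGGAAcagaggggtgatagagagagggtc
C1qc: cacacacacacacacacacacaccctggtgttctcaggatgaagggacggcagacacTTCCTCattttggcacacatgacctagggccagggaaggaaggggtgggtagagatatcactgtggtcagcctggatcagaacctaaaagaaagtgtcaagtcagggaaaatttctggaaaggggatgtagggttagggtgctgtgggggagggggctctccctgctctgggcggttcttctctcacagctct
C3ar1: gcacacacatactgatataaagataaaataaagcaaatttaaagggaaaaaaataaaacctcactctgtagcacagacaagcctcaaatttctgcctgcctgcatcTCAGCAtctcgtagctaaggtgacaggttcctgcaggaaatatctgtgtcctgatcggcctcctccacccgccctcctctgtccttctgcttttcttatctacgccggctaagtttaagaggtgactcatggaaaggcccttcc
C3: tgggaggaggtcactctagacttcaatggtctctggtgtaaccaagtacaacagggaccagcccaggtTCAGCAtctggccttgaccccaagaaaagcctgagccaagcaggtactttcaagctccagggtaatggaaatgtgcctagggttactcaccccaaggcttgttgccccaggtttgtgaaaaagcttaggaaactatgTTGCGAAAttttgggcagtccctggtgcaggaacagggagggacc
Itgam: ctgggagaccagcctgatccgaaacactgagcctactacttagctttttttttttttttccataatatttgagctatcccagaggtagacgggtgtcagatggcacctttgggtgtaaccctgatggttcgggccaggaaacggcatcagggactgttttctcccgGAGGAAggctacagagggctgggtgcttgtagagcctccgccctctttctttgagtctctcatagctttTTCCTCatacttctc
C1qb held a GAGGAA beginning at -30 and a TGCTGA at -131 from the start site. C1qc held 1 GAGGAA on the other strand at -193, and Itgam held 2, at -84 and at -15. C3ar1 held a TGCTGA at -144 on the other strand, as did C3 at -182, and C3 was the 1 member window with the C/EBP motif, at -45. The C5ar1 window held a TGCTGA at -17, and the Cfp window held none of these motifs. Among 32851 mouse promoter windows of this length, 23.3% held GAGGAA, 16.1% TGCTGA and 9.56% TTGCNNAA. The interferon-stimulated response element (ISRE) was in 2.98% of them and in none of the member windows scanned. C1qa and C4b had no window and were not scanned. These matches are short and common, and they describe letters only.

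Levels below are means per cell of the deposited RNA values, which are counts corrected for depth by SCTransform, averaged within each cell type of each pool. Cell types are the depositors' own (AllCellIDs). P2ry12 (10.6) and Tmem119 (8.09) were highest in microglia, and Pf4 (8.62), Mrc1 (6.19) and Ms4a7 (3.36) in BAM. F13a1, also listed for BAM, was 3.29 there and 6.02 in Ly6CHigh cells. Several types also carried genes of other cells. Igkc, of B-lineage cells, was 49.4 in B cells, 25.7 in CD8+ and 15.1 in Ly6CLow cells. S100a9, of neutrophils, was 1041 in Ly6C+Ly6G+ and 33.4 in B cells. Trbc2, of T cells, was 8.70 in CD4+ cells, 9.36 in CD8+ cells and 4.14 in innate lymphoid cells. Cd209a, of dendritic cells, was highest in Ly6CLow cells (3.34). Pools held 760 to 1590 cells with 5745242 to 13742781 raw RNA UMIs, and 59 cell barcodes occurred in both wells. Microglia made up 9403 cells, and the other types 9 to 728 cells each. Pools with fewer than 10 cells of a type were left out, which removed natural killer cells (9 cells) from every comparison. The depositors may have used some of these genes to name the types, and the Ly6CLow, Ly6CHigh and Ly6C+Ly6G+ types were drawn from a gate on Itgam and CD11b, so differences between types are described and not tested. Because the 3-prime libraries favour some transcripts over others, levels are compared within a gene across types and groups and not between genes.

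The C1q chains were carried by microglia and BAM. C1qa averaged 56.6 in microglia (SD 2.09 over 12 pools, range 53.2 to 59.1) and 51.1 in BAM (SD 3.64, range 43.8 to 55.9), and these ranges overlapped. C1qb (54.9 against 45.4) and C1qc (38.3 against 31.7) were higher in microglia than in BAM with no overlap of pools. The next type was Ly6CLow, myeloid cells of the blood-derived gate, with C1qa at 9.25 (SD 3.59, range 3.12 to 16.7), below every BAM pool. B cells followed at 4.62, Ly6C+Ly6G+ cells (the neutrophil gate) at 4.20, Ly6CHigh cells at 3.53, CD4+ T cells at 1.70, innate lymphoid cells (ILCs) at 1.34 and CD8+ T cells at 1.30, each overlapping its neighbour. T cells and ILCs are not known as C1q producers, yet 47.1% of young and 45.8% of aged CD4+, CD8+ and ILC cells had a C1qa value above 0, at a median depth of 6744 and 6735 raw UMIs. These shares set the background, and in microglia (median 6809 and 7118 UMIs) the share was 99.9% and 99.8%.

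**Figure D1:**
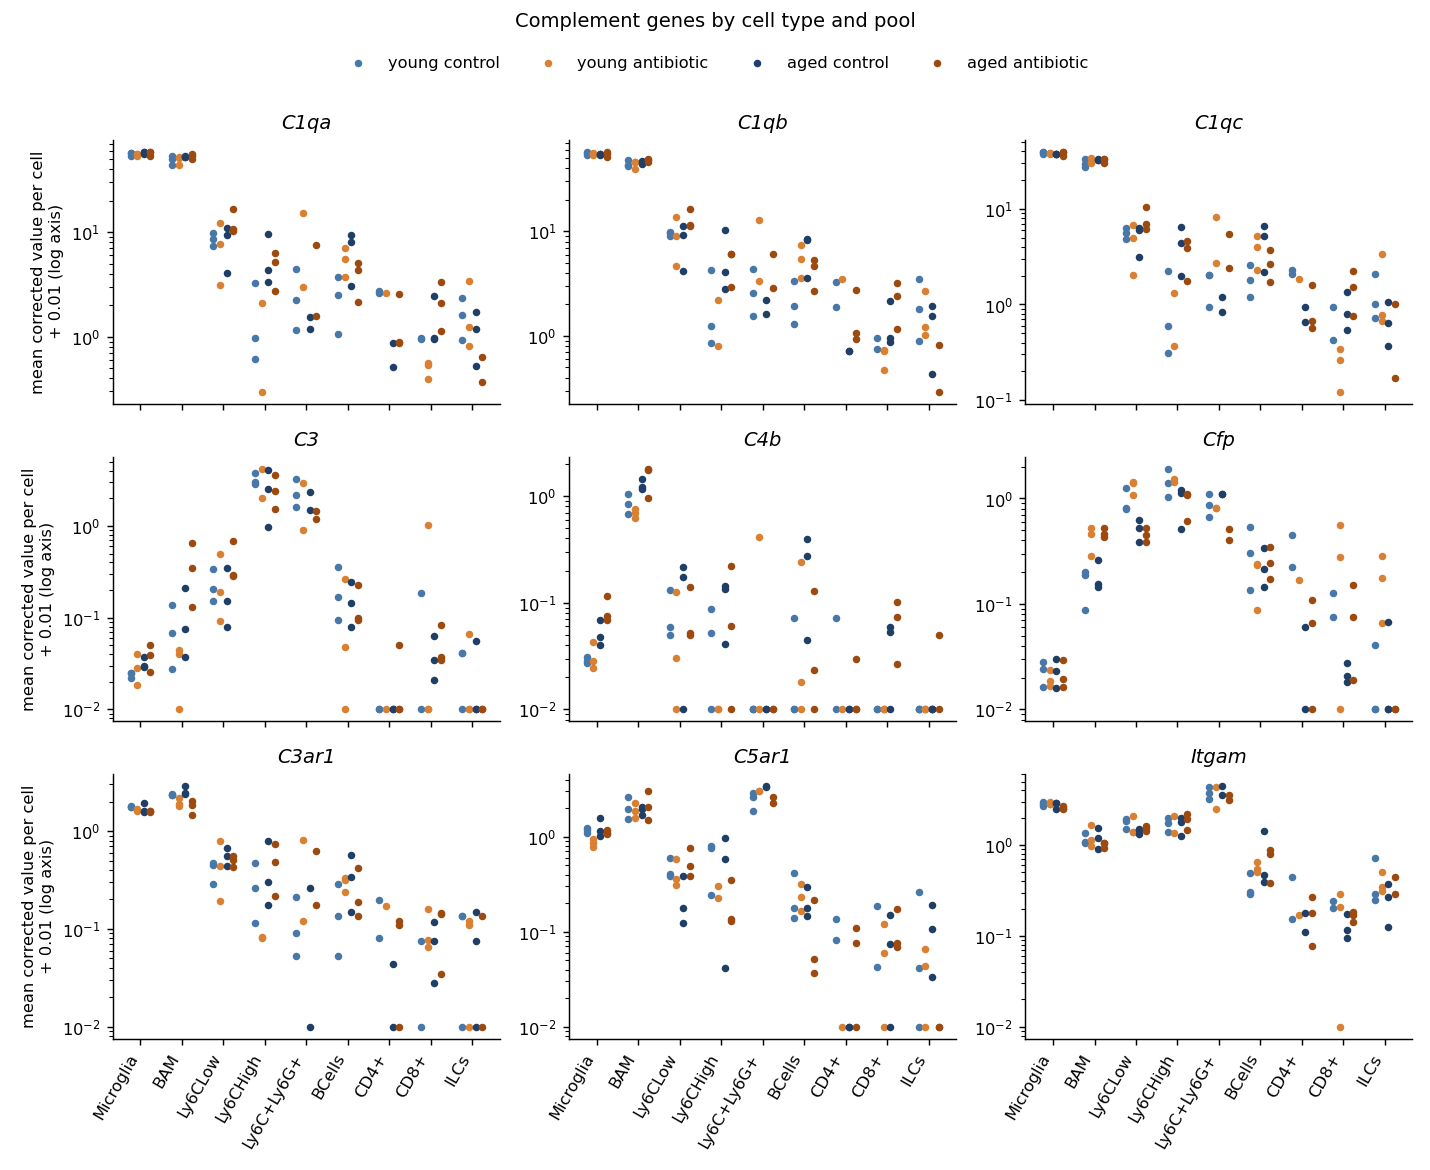
Level of each of the 9 genes by cell type, drawn as the mean SCTransform value per cell plus 0.01 on a log axis, 1 point per pool with at least 10 cells, coloured by group. C1qa, C1qb and C1qc are highest in microglia and BAM, C3 in Ly6CHigh and Ly6C+Ly6G+ cells, C4b in BAM, and C5ar1 and Itgam reach their highest means in Ly6C+Ly6G+ cells.

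The 3 chains moved together from cell to cell. Within the microglia of 1 pool, the Spearman correlation of C1qa with C1qb over cells was 0.729 at its lowest, 0.784 at the median and 0.851 at its highest over the 12 pools, and that of C1qa with C1qc had a median of 0.713. C3ar1 with C5ar1 had a median of 0.209 and C1qa with Itgam 0.212. All of these share the cells' depth, so they are descriptions. Over 98 means of a type in a pool, the genes most like C1qa among 8989 were C1qb (Pearson r 0.992 of the log2 levels), C1qc (0.990) and Lgmn (0.961), a lysosomal protease. For C3ar1 they were C1qb (0.936), C1qa (0.935) and C1qc (0.925).

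Most of the C1q signal in Ly6CLow cells came from a minority of them, although C1qa was above 0 in 62.6% of them. A cell was called C1q-high when its summed C1q value reached the 5th percentile of the microglia of its well, a limit set after the data were seen (29 in the young well and 22 in the aged well). By this limit 95.8% of BAM were C1q-high, as were 150 of 634 Ly6CLow cells, a share of 23.7% (exact 95% interval 20.4 to 27.2%, counting error only). The C1q-high Ly6CLow cells averaged 35.0 for C1qa against 1.72 in the others, a gap that follows from the split on C1q itself. Genes not used for the split averaged 1.67 against 0.130 (C3ar1) and 0.787 against 0.287 (C5ar1). The C1q-high Ly6CLow cells averaged 1.63 for P2ry12, a microglial receptor, against 0.496, where microglia had 10.6 and BAM 2.44. Ms4a7, a BAM marker, was at 1.22 against 0.0372, and BAM had 3.36. Of 2 monocyte genes, Ccr2 was at 3.89 against 2.70, where microglia had 0.0358 and BAM 1.25. Nr4a1 was at 3.37 against 6.22, where microglia had 1.16 and BAM 2.24. The median depth of the C1q-high cells was 12189 raw UMIs against 7440 in the other Ly6CLow cells. Whether some were 2 cells in 1 droplet was not tested, and the table lists every cell as a singlet. The share was 14.6% in B cells. In Ly6CHigh cells it was 6.34% in the young and 18.2% in the aged well, and in Ly6C+Ly6G+ cells 4.56% and 18.02%. The C1q-high cells of these gates were shallow in the aged well, with medians of 523 raw UMIs against 4881 in the other Ly6CHigh cells and 533 against 7167 in the other Ly6C+Ly6G+ cells, but not in the young well (19157 against 12754 and 14457 against 9768). The share was 3.74% in CD4+ cells, 3.02% in CD8+ cells and 1.52% in ILCs.

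**Figure D2:**
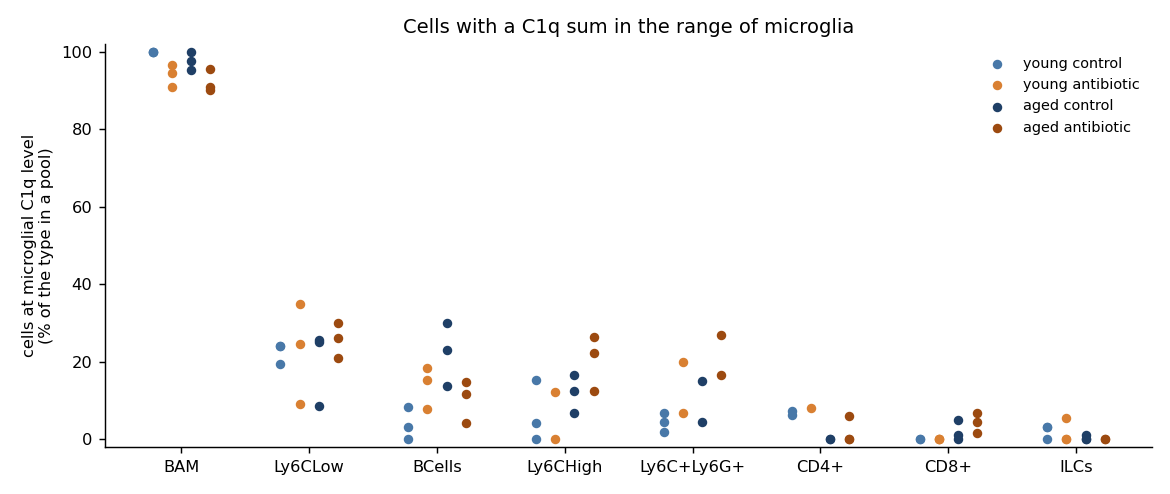
C1q-high cells, drawn as the percent of the cells of each type in each pool whose summed C1qa, C1qb and C1qc value reached the 5th percentile of the microglia of the same well. Each point is a pool coloured by group. BAM lie near the top of the axis and Ly6CLow cells, 23.7% over all cells, are the next type.

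In microglia no C1q chain passed the test across all genes for age or antibiotics. C1qa was 57.7, 53.7 and 57.6 in the young control pools, 56.1, 53.2 and 55.6 in the young antibiotic pools, 56.6, 58.1 and 58.2 in the aged control pools and 53.8, 58.9 and 59.1 in the aged antibiotic pools. The groups overlapped in every comparison. C1qb ranged from 51.3 to 58.0 and C1qc from 36.1 to 39.7 over the same pools. All log2 changes of the 3 chains over 6 contrasts were between -0.05 and 0.06, with standard errors from 0.054 to 0.120 and adjusted p of at least 0.770 (limma). The contrasts were antibiotic against control in young mice, in aged mice and as the mean of both, aged against young in controls and in antibiotic mice, and the difference of the antibiotic changes. Of the 36 tests of 6 members that microglia expressed above the filter, 1 passed an adjusted p of 0.05. Over all 8759 genes the percent called was 0.137, 3.23 and 5.4 for the antibiotic contrasts in the order given, 2.66 and 6.15 for age, and 0 for the difference, where 579 genes had an unadjusted p under 0.05.

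The balance of the chains did differ with age. The ratio of C1qa to C1qb in microglia was 1.01, 1.00 and 1.03 in young control pools and 1.01, 0.998 and 1.01 in young antibiotic pools. It was 1.06, 1.05 and 1.06 in aged control pools and 1.05, 1.07 and 1.02 in aged antibiotic pools. All aged pools lay above the young pools of their own arm, with means of 1.05 against 1.01 (two-sided exact permutation test within arms, p = 0.005, the smallest that 400 arrangements allow). This ratio was examined after the data were seen, and its age difference is also a difference of wells. It did not differ detectably with antibiotics (exact p = 0.335), nor did C1qc to C1qb with age (exact p = 0.345), and in BAM the ratio was 1.12 in young and 1.13 in aged pools (exact p = 0.68).

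CD8+ cells showed a higher C1q level in aged than in young antibiotic mice. C1qa averaged 0.968 and 0.941 in the 2 young control pools with enough cells, and 0.550, 0.533 and 0.389 in the young antibiotic pools. It was 0.946, 0.968 and 2.43 in aged control pools and 1.13, 2.12 and 3.37 in aged antibiotic pools. The antibiotic groups did not overlap, as in 18.2% of all genes tested in this contrast. The log2 changes with age in antibiotic mice were 1.94 for C1qa, 1.67 for C1qb and 2.42 for C1qc. Their adjusted p-values by limma were 0.0233, 0.0470 and 0.0162, against 0.664% of 8287 genes called. In the other 5 contrasts 0.0821% of tests over all genes passed and no member did. C1q-high cells made up 0% of the CD8+ cells in every young pool with enough cells. Their share was 0, 1.08 and 4.96% in aged control pools and 1.64, 4.55 and 6.67% in aged antibiotic pools. Over both arms together, 0 of 106 young CD8+ cells were C1q-high (exact upper limit 3.42%, counting error only) and 22 of 622 aged ones (3.54%). In the aged well the C1q-high CD8+ cells averaged 42.7 for the summed microglia markers, against 2.12 in the other CD8+ cells. For the summed BAM markers they averaged 13.9 against 0.123. Their median depth was 15663.5 raw UMIs against 6844.5, and whether some were 2 cells in 1 droplet was not tested. Without the C1q-high cells C1qa averaged 0.491 in young antibiotic pools (0.389 to 0.550) and 0.713 in aged ones (0.667 to 0.750), still with no overlap. With the 10-cell minimum lowered to 5 cells, 1 of the 3 calls was kept, without the filter or the variance trend 0 were, and leaving out single pools ended the C1qa call in 4 of 12 cases, the C1qb call in 9 and the C1qc call in 3.

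C3, the central component of the cascade, was found in the Ly6C-expressing blood-derived cells and hardly in microglia. It averaged 2.80 in Ly6CHigh cells (SD 1.05, range 0.969 to 4.17) and 1.91 in Ly6C+Ly6G+ cells (SD 0.788, range 0.900 to 3.20), which overlapped. Ly6CLow cells at 0.266 (0.0694 to 0.681) lay below both. B cells at 0.142, BAM at 0.138 and CD8+ cells at 0.127 followed, and microglia were at 0.0209. In the young well 1.11% of microglia (exact interval 0.840 to 1.44%) had any C3, against 2.70% (1.24 to 5.07%) of CD4+, CD8+ and ILC cells. In the aged well it was 1.74% against 1.28%, so the share in microglia was at the background of cells that should lack the transcript. The genes most like C3 over types and pools were Mgst1 (r 0.940), Prdx5 (0.924) and Hp (0.909), which codes for haptoglobin. Ly6CHigh cells of the aged mice were shallow, and 59.6% of them in the antibiotic group and 45.3% in the control group had under 2000 raw UMIs.

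Properdin, which neutrophils and monocytes are known to release, had its highest means in the same gate. Cfp averaged 1.17 in Ly6CHigh cells (SD 0.396), 0.811 in Ly6C+Ly6G+ cells (SD 0.261) and 0.798 in Ly6CLow cells (SD 0.393), each overlapping its neighbour. BAM had 0.301, B cells 0.239, CD4+ cells 0.127, CD8+ cells 0.114 and ILCs 0.0535. Microglia were lowest at 0.0118, and 0.852% of young and 0.941% of aged microglia had any Cfp, below the 7.51% and 2.66% of CD4+, CD8+ and ILC cells. The genes most like Cfp were Ifitm3 (r 0.876), Plbd1 (0.858) and Cybb (0.856), the last a subunit of the phagocyte NADPH oxidase.

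In BAM, Cfp rose after antibiotics by the test over both ages together, and neither age passed by itself. The level was 0.0769, 0.176 and 0.193 in young control pools and 0.278, 0.515 and 0.448 in young antibiotic pools. It was 0.135, 0.250 and 0.145 in aged control pools and 0.515, 0.455 and 0.420 in aged antibiotic pools. Every antibiotic pool lay above every control pool of its age. Arms did not overlap in 9.64% of all genes tested in young BAM and 14.5% in aged BAM. The log2 change was 1.24 in young mice (limma adjusted p = 0.689), 1.21 in aged mice (adjusted p = 0.263) and 1.23 over both (SE 0.232, adjusted p = 0.0381), and the 2 ages differed by -0.03 (SE 0.464). Means over both ages were 0.163 in controls and 0.438 in antibiotic pools (two-sided exact permutation within age, p = 0.005, the smallest allowed). The share of BAM with any Cfp was 11.3% in controls and 22.3% in antibiotic pools (exact p = 0.005). It was 3.69% and 8.31% after thinning every cell to 2000 corrected values (exact p = 0.01). Thinning drew on corrected values, so it does not level raw depth, and 4.42 to 7.87% of BAM per group had under 2000 raw UMIs. The Cfp result was 1 call in 54 tests of 9 members, and over all 8942 genes 0.0559% were called for the mean antibiotic contrast. The percent called was 0.0224 and 0.123 for antibiotics in young and aged mice, 0.0447 and 0.0783 for age in control and antibiotic mice, and 0 for the difference of antibiotic changes, with 551 genes at an unadjusted p under 0.05.

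BAM numbered only 17 to 62 cells per pool, and the adjusted p rose above 0.05 in 11 of 12 fits that left out a pool (0.0441 to 0.187, with log2 changes of 1.08 to 1.34) and to 0.0934 and 0.0799 with a pseudocount of 0.5 or 0.01 in place of 0.05. The 8 microglia markers, summed over BAM, ran from 30.8 to 51.0 in young control, 28.9 to 52.6 in young antibiotic, 35.8 to 52.5 in aged control and 18.9 to 29.0 in aged antibiotic pools, where 2 were called lower by limma. Markers of Ly6C-high monocytes, which carry more Cfp than BAM, ran from 2.46 to 3.29, 1.24 to 2.00, 0.324 to 1.03 and 0.591 to 1.36 in the same order. Among monocyte genes Ccr2 had group means in BAM of 2.55, 1.29, 0.669 and 0.854 in that order, Ly6c2 of 0.0340, 0.0808, 0.0561 and 0.0142, and Plac8 of 0.0202, 0.0380, 0.00538 and 0.0634. In young antibiotic BAM Ccr2 was lower and Ly6c2 and Plac8 higher than in young control BAM, and Plac8 was also higher in aged antibiotic than in aged control BAM. Neutrophil markers ran from 1.41 to 2.36 in young and from 0.460 to 0.705 in aged pools. Their part in the result was not tested.

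In Ly6CLow cells Cfp fell with age in the antibiotic mice. The level was 1.07, 1.39 and 1.43 in young antibiotic pools and 0.438, 0.377 and 0.520 in aged antibiotic pools, which did not overlap. Young control pools had 0.793, 0.805 and 1.24, and aged control pools 0.514, 0.375 and 0.616, also with no overlap. The log2 change was -1.44 in antibiotic mice (SE 0.236, limma adjusted p = 0.00385) and -0.85 in controls (SE 0.236, adjusted p = 0.106), and the antibiotic changes at the 2 ages differed by -0.60 (adjusted p = 0.979). Over 8613 genes 1.95% were called in the antibiotic age contrast, 0.755% in the control age contrast and 0 over the other 4 contrasts. Leaving out the C1q-high cells gave means of 0.925, 1.37, 0.556 and 0.527 in the young control and antibiotic groups and then in the aged control and antibiotic groups. Aged Ly6CLow cells were shallower, with 31.1 to 32.1% under 2000 raw UMIs against 4.00 to 4.70% of young ones, and over cells with at least 2000 UMIs the change was -1.07 with an adjusted p of 0.120. The median change of all genes with age was -0.21 in controls and -0.11 in antibiotic mice, and age groups did not overlap in 20.6% and 20.7% of genes.

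Genes of other cells differed in the same Ly6CLow pools. Igkc, an immunoglobulin gene of B-lineage cells, had group means of 0.112 (control) and 0.210 (antibiotic) at the young age, and of 28.1 (control) and 19.4 (antibiotic) at the older age. In the same order S100a8, a neutrophil gene, had 0.488, 2.28, 5.31 and 11.4, Ccr2 had 3.78, 4.17, 2.28 and 2.23, and Cd74, of antigen presentation, had 166, 207, 103 and 114. The 6 B cell markers summed to 0.900 to 2.63 in young and 1.94 to 64.8 in aged pools, and the 8 neutrophil markers to 1.46 to 29.1 and 1.01 to 93.1. Their part in the Cfp result was not tested.

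**Figure D3:**
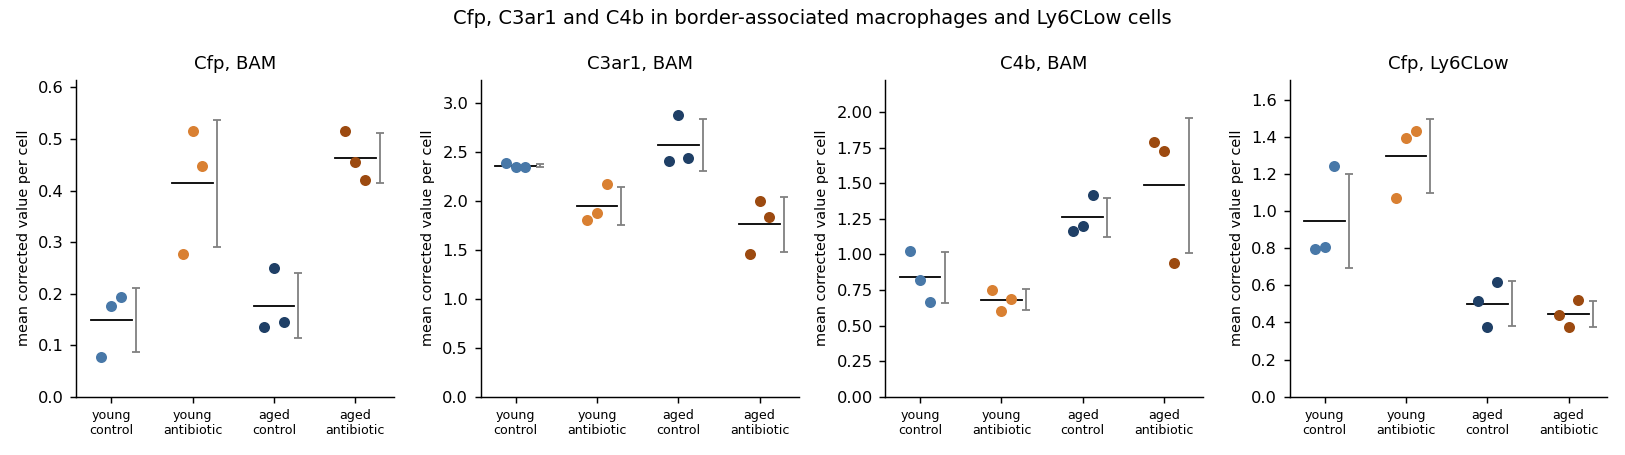
Mean SCTransform values per cell of members in BAM and Ly6CLow cells by group, with 1 point per pool, a black line at the mean of 3 pools and a grey bar of 1 SD. BAM Cfp is higher in the antibiotic pools at both ages (0.278 to 0.515 against 0.0769 to 0.250), and Ly6CLow Cfp is lower in aged pools (0.375 to 0.616) than in young pools (0.793 to 1.43).

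C4b, a component of the classical and lectin pathways that C1-associated proteases cleave, was a gene of BAM. It averaged 1.07 in BAM (SD 0.404, range 0.606 to 1.79) and was above 0 in 31.6% of them. Every other type lay below all BAM pools, from 0.0932 in B cells and 0.0774 in Ly6CLow cells to 0.0397 in microglia and 0.00364 in ILCs. The genes most like it were Cp (r 0.875), which codes for ceruloplasmin, Cd163 (0.872), a haemoglobin scavenger receptor, and Pf4 (0.865), the last 2 known from BAM. C4b may share reads with its near-identical neighbour C4a, so its values are uncertain to that extent.

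C4b was higher in aged microglia, at a low level. The young control pools had 0.0184, 0.0213 and 0.0173, the young antibiotic pools 0.0325, 0.0184 and 0.0143, the aged control pools 0.0373, 0.0582 and 0.0299, and the aged antibiotic pools 0.0651, 0.0584 and 0.105. The last value rests in part on shallow cells, and was 0.0584 over cells with at least 2000 raw UMIs. Over all cells of a pool, aged pools lay above all young pools of their own arm. Age groups did not overlap in 19.6% of all genes tested in control and 22.2% in antibiotic microglia. Mean levels were 0.0204 in young and 0.0590 in aged pools, and the share of microglia with any C4b was 1.39% against 3.28% (two-sided exact permutation within arms, p = 0.005 for both, the smallest allowed). Exact p-values are not adjusted, and 19 of 108 such tests of members in microglia and BAM within arms or ages were under 0.05. After thinning every cell to 2000 corrected values the shares were 0.598% and 1.58% (exact p = 0.005). Thinning kept the cells with under 2000 raw UMIs, 8.30 to 14.6% of microglia per group, so it does not level raw depth. C4b was under the filter of 0.05 set for the gene test. With the filter at 0.01, chosen after the data were seen, its log2 change with age was 0.80 in antibiotic mice (limma adjusted p = 0.00143, against 5.43% of 11282 genes called) and 0.40 in controls (adjusted p = 0.178). The size rests on the pseudocount of 0.05, and was 0.14 with 0.5 and 1.44 with 0.01, with the call kept. Background rose too: CD4+, CD8+ and ILC cells had any C4b in 0.300% (exact interval 0.00760 to 1.66%) of young and 1.70% (0.977 to 2.75%) of aged cells, where microglia had 1.37% (1.07 to 1.73%) and 3.19% (2.69 to 3.75%). The part of free RNA in the microglial difference was not tested.

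BAM C4b followed the same direction. It was 1.03, 0.824 and 0.667 in young control, 0.750, 0.606 and 0.690 in young antibiotic, 1.16, 1.20 and 1.42 in aged control and 1.79, 1.73 and 0.940 in aged antibiotic pools. Within each arm the aged pools lay above the young ones, where 11.2% of all genes in control and 13.6% in antibiotic BAM did not overlap. Means were 0.760 and 1.37, and the share of cells 26.1% and 36.9% (two-sided exact permutation within arms, p = 0.005 for both), or 14.4% and 23.0% after thinning (exact p = 0.01). The test across all genes did not pass, with log2 changes of 0.58 in controls (limma adjusted p = 0.797) and 1.02 in antibiotic mice (adjusted p = 0.088). C3 in BAM was 0.128, 0.0588 and 0.0175 in young control, 0, 0.0303 and 0.0345 in young antibiotic, 0.0270, 0.200 and 0.0645 in aged control and 0.636, 0.341 and 0.120 in aged antibiotic pools. Its age change in antibiotic mice was 2.36 (SE 0.523, adjusted p = 0.068), and with pools of at least 20 cells only, C4b and C3 in that contrast had adjusted p of 0.0467 and 0.0346.

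The receptor for C3a was shared by the brain macrophages. C3ar1 averaged 2.16 in BAM (SD 0.382, range 1.45 to 2.88) and 1.67 in microglia (SD 0.112, range 1.56 to 1.93), which overlapped, and Ly6CLow cells at 0.474 (0.182 to 0.791) lay below both. Ly6CHigh cells had 0.328, B cells 0.254, Ly6C+Ly6G+ cells 0.251, and T cells and ILCs 0.0717 to 0.0829. It was above 0 in 67.5% of microglia and 77.7% of BAM.

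C3ar1 was lower after antibiotics in BAM by the test over pools but not by the test over all genes. BAM pools had 2.38, 2.35 and 2.35 in young controls, 1.81, 1.88 and 2.17 in young antibiotic mice, 2.41, 2.88 and 2.44 in aged controls and 1.45, 2.00 and 1.84 in aged antibiotic mice. The arms did not overlap at either age, as in 9.64% of all genes tested in young BAM and 14.5% in aged BAM. Means were 2.47 in controls and 1.86 after antibiotics (two-sided exact permutation within age, p = 0.005), and the log2 change was -0.41 (SE 0.124, limma adjusted p = 0.398). Microglia had 1.74, 1.78 and 1.77 in young controls against 1.59, 1.64 and 1.69 in young antibiotic mice, which did not overlap (16.1% of all genes did not in this contrast). In aged mice they had 1.56, 1.93 and 1.60 against 1.58, 1.60 and 1.61, which overlapped, and the log2 change over both ages was -0.09 (SE 0.048, adjusted p = 0.281).

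The receptor for C5a had its highest mean in Ly6C+Ly6G+ cells. C5ar1 averaged 2.77 there (SD 0.492, range 1.87 to 3.40), 1.99 in BAM (SD 0.452, range 1.50 to 3.00) and 1.09 in microglia (SD 0.207, range 0.762 to 1.58), each overlapping its neighbour. Ly6CLow cells had 0.405 and Ly6CHigh cells 0.402, B cells 0.188, and T cells and ILCs 0.0454 to 0.0784. The genes most like it were Siglece (r 0.871), Ogfrl1 (0.855) and Ptafr (0.854), the receptor for platelet-activating factor.

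C5ar1 was the 1 member called in microglia, where it fell after antibiotics. The level was 1.16, 1.24 and 1.09 in young control pools and 0.854, 0.937 and 0.762 in young antibiotic pools, which did not overlap (16.1% of all genes did not in this contrast). It was 1.14, 1.58 and 1.00 in aged control pools and 1.07, 1.16 and 1.07 in aged antibiotic pools, which did. The log2 change over both ages was -0.29 (SE 0.079, limma adjusted p = 0.0413), a contrast in which 5.4% of all 8759 genes were called. It was -0.43 in young (adjusted p = 0.141) and -0.14 in aged mice (adjusted p = 0.543), and these differed by 0.29 (SE 0.159, adjusted p = 0.808). Means over both ages were 1.20 and 0.976 (two-sided exact permutation within age, p = 0.04), and 48.7% against 43.2% of microglia had any C5ar1 (exact p = 0.03). The call was close to its limit: the adjusted p was 0.0505 with the filter at 0.01, 0.0607 after rescaling, and above 0.05 in 9 of 12 fits without a pool (0.0083 to 0.0964). Summed markers of neutrophils, a C5ar1-rich cell, were 2.32 to 6.50 in young control, 2.41 to 20.9 in young antibiotic, 0.640 to 0.740 in aged control and 1.13 to 3.03 in aged antibiotic pools of microglia, and 0 of the 6 markers were called for antibiotics by limma while 5 were called lower with age in each arm. Their part in the result was not tested.

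**Figure D4:**
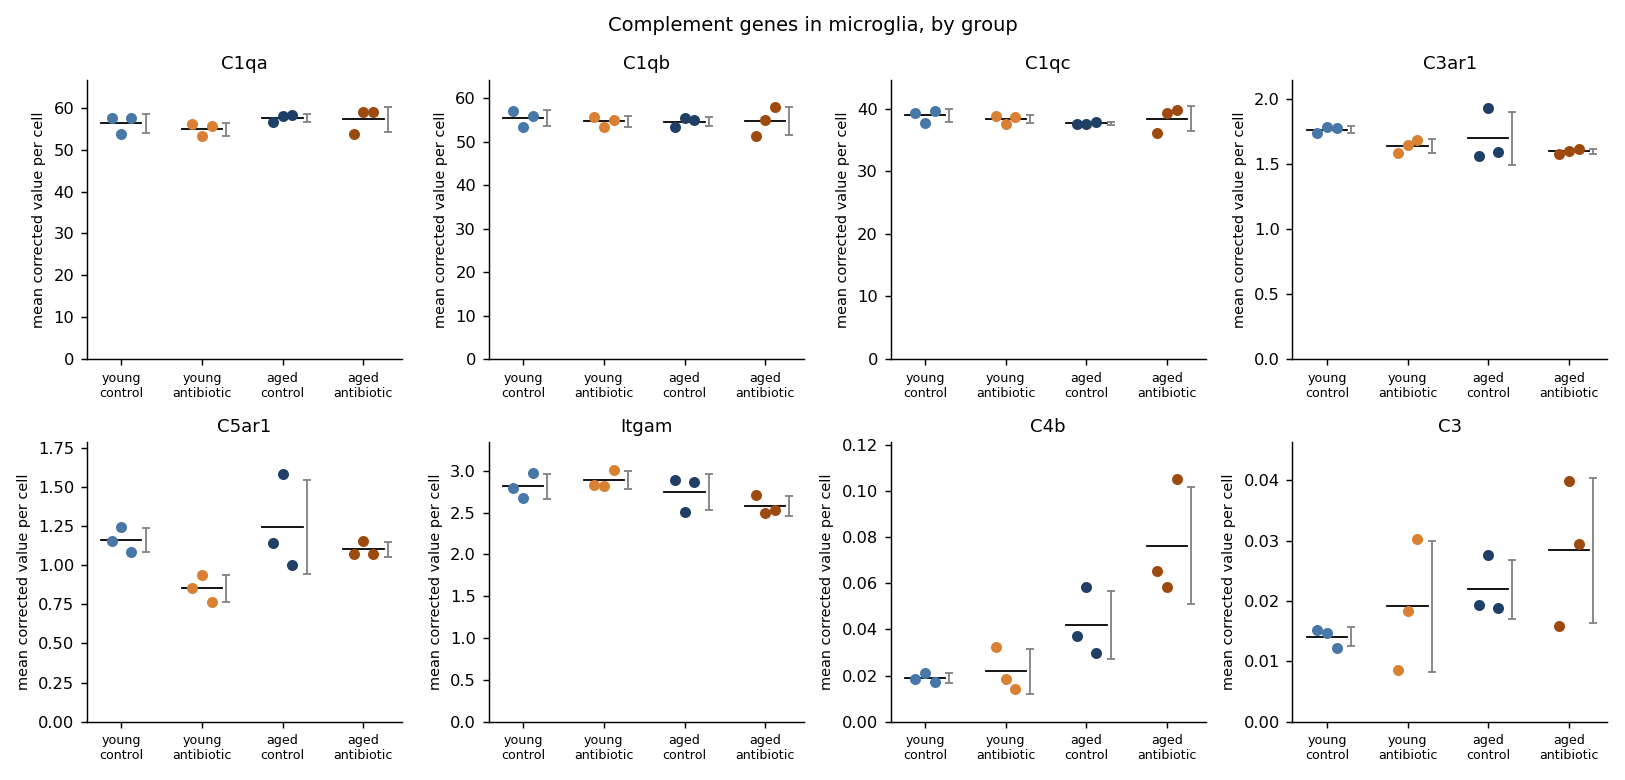
Mean SCTransform values per cell of members in microglia by group, with 1 point per pool, a black line at the mean of 3 pools and a grey bar of 1 SD. C1qa overlaps in all groups, C5ar1 is lower in the young antibiotic pools (0.762 to 0.937) than in the young control pools (1.09 to 1.24), and C4b is higher in aged pools (0.0299 to 0.105) than in young ones (0.0143 to 0.0325) with an overlap only across arms.

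Itgam, which pairs with Itgb2 to form CR3, averaged 3.66 in Ly6C+Ly6G+ cells (SD 0.657, range 2.50 to 4.45) and 2.76 in microglia (SD 0.177, range 2.49 to 3.01), which overlapped. Ly6CHigh cells at 1.74, Ly6CLow cells at 1.57 and BAM at 1.16 (0.900 to 1.67) lay below every microglia pool and overlapped each other in that order. B cells had 0.587, ILCs 0.348, CD4+ cells 0.188 and CD8+ cells 0.157. The genes most like Itgam were Spi1 (r 0.908), which codes for PU.1, Ogfrl1 (0.904) and Ptpre (0.893). In microglia Itgam was 2.79, 2.68 and 2.98 in young control pools, 2.83, 2.82 and 3.01 in young antibiotic pools, 2.89, 2.50 and 2.86 in aged control pools and 2.72, 2.49 and 2.53 in aged antibiotic pools. Aged antibiotic pools lay below the young antibiotic pools, where 22.2% of all genes tested did not overlap. The log2 change of -0.16 (SE 0.065) did not pass (limma adjusted p = 0.170).

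The protein, CD11b, was read with an antibody whose 15-base tag is printed because it carries the protein counts.
CD11b tag: tgaaggctcatttgt
Microglia had 661 ± 56.6 CD11b tags per cell in young control pools, 648 ± 52.3 in young antibiotic pools, 98.9 ± 1.98 in aged control pools and 97.2 ± 11.2 in aged antibiotic pools (mean ± SD, n = 3). The aged well had fewer tags of all antibodies, with 210 and 207 at the median cell against 1377 and 1314, so these counts cannot be set against each other directly. As a share of all tags CD11b was 49.5%, 49.1%, 47.6% and 47.9% in the same order. Relative to the other antibodies it was lower with age by edgeR's quasi-likelihood test after TMM scaling, by a log2 change of -0.34 in controls (SE 0.083, adjusted p = 0.00693) and -0.27 in antibiotic mice (adjusted p = 0.0200). In these contrasts 52.9% and 50% of the 34 antibodies were called, so a call says little about CD11b by itself. Without TMM the changes were -0.06 and -0.04 (adjusted p = 0.361 and 0.510), and neither passed. Antibiotics gave -0.03 over both ages (adjusted p = 0.914), and 0 of 136 tests in the other 4 contrasts passed. Over 9 cell types the order of Itgam RNA and CD11b tags had a Spearman rho of 0.867 in the young well and 0.733 in the aged well, as a description.

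**Figure D5:**
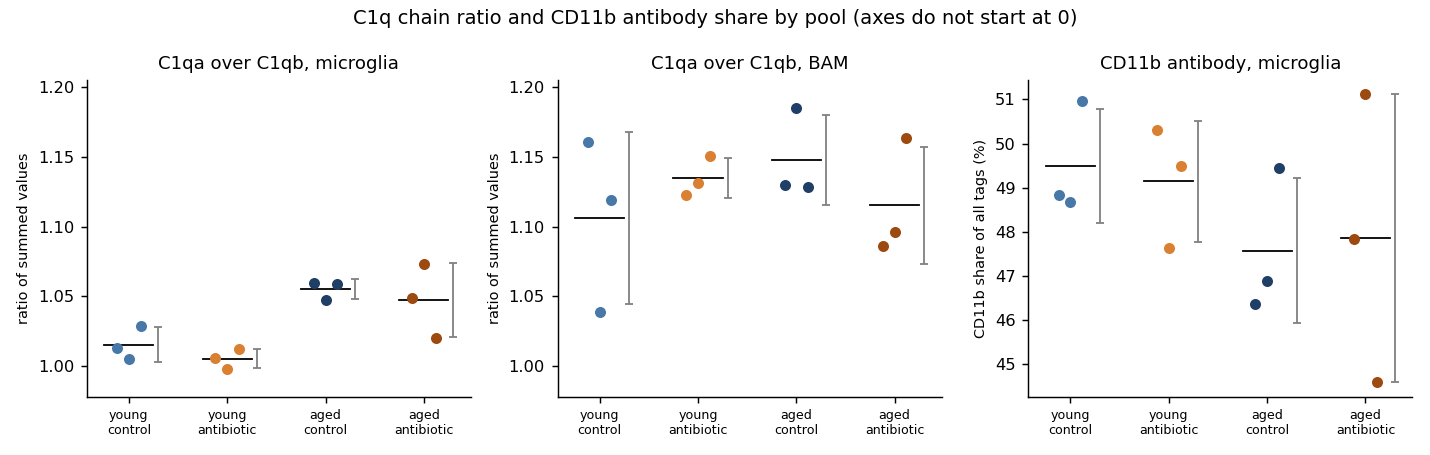
The ratio of C1qa to C1qb is drawn for microglia (left) and BAM (middle), and CD11b as a percent of all antibody tags for microglia (right). Points are pools by group, black lines are means of 3 pools and grey bars 1 SD, and the vertical axes do not start at 0. Within each arm the microglial ratio is higher in the aged pools (1.02 to 1.07 over both arms) than in the young pools (0.998 to 1.03). In BAM aged and young pools overlap in both arms. The CD11b share lies between 44.6 and 51.1% in all pools.

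CD11b tags on CD8+ cells were more frequent after antibiotics, at 6.48% of tags in young and 4.73% in aged antibiotic groups against 2.59% and 2.48% in their controls. The log2 changes were 1.57 in young mice, 0.94 in aged mice and 1.25 over both (edgeR adjusted p = 0.0418, 0.368 and 0.0154, with 5.88%, 0% and 5.88% of the 34 antibodies called). Leaving out single pools ended the young call in 10 of 12 fits and the call over both ages in 3. The log2 differences of Itgam RNA in these cells were -0.72 in young mice and -0.21 over both ages (limma adjusted p = 0.575 and 0.885).

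The other types gave no member call. Over Ly6CHigh, Ly6C+Ly6G+, B and ILC cells 0 of 198 member tests passed by limma, where 0.116% of tests over all genes did. An unadjusted p under 0.05 was found in 36 member tests, which are not independent because the C1q chains vary together. Over all genes the count at that limit ran from 139 of 6912 (Ly6C+Ly6G+, age in controls) to 1045 of 8190 (Ly6CHigh, age in controls) per contrast. ILCs lacked 1 pool, Ly6CHigh cells 1 and Ly6C+Ly6G+ cells 3 of the 12 pools, which limits what these fits can detect.

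Of 47 further complement genes listed, 37 were in the table and 11 passed the filter in microglia, among them the protease-like gene C1rl, the regulators Clu, Cr1l and Vtn, and the receptors or partners C1qbp, C5ar2, Calr, Itgb2, Lair1 and Lrp1. Calr was the 1 gene called, where 3.23% of all 8759 genes were called for antibiotics in aged mice and 5.4% over both ages. It codes for calreticulin, an endoplasmic reticulum chaperone that can act at the cell surface as a receptor for C1q, and it fell after antibiotics. Its group means were 4.44 in young controls, 3.62 in young antibiotic mice, 4.23 in aged controls and 3.10 in aged antibiotic mice. The log2 change was -0.44 in aged mice (SE 0.072, limma adjusted p = 0.00242), -0.30 in young mice (adjusted p = 0.103) and -0.37 over both (SE 0.051, adjusted p = 0.000370). The median change of the 11 genes over both ages was -0.05, against -0.01 over all genes tested. Lair1, an inhibitory receptor that binds C1q, averaged 3.95 in microglia (range 3.69 to 4.25) and passed in no contrast. In BAM 18 of these genes were tested and 0 passed, among them C5ar2, the second C5a receptor, at -0.83 after antibiotics (adjusted p = 0.333).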

How the data were processed

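RNA and antibody libraries of 12 pools were analysed, 3 per group. The authors deposited RNA values corrected by SCTransform, which are whole numbers but no longer raw counts and are treated as a score, together with raw antibody tag counts and a table of cells; Cell Ranger 3.0.2, Seurat 3.0.1 and mm10 are named per the submitters' processing notes. The deposited counts of raw UMIs per cell gave depth, and 31 of 40 columns of the cell table were not used. Here the cell type means of each gene were taken pool by pool (at least 10 cells each). log2(mean + 0.05) was tested with limma 3.58.1 (R 4.3.3, trended variance) on genes averaging at least 0.05, with Benjamini-Hochberg adjustment within each contrast over all genes and a threshold of 0.05. The SCTransform step has already removed part of any depth difference, the pseudocount shrinks changes of low genes, and intervals cover counting error only. Summed tags were tested with edgeR 4.0.16 (quasi-likelihood, TMM). Single values were tested by exact permutation of pools. The scripts were tested on simulated data. Members and lists were chosen with earlier results of these data known. The named genes were the 9 members, further complement genes called in microglia and the 3 genes most like each member by Pearson correlation of log2 levels over types and pools. Labels do not say which animals formed a pool, so p-values measure the spread between pools. Microglia of pools with the same hashtag number deviated together little (r from -0.0946 to 0.109), and the main fits did not pair them. The best match was the pool of the same number for hashtags 1 to 3 and not for hashtags 4 to 6, so a pairing is not excluded. CD4+ and natural killer cells were not fitted. Ly6C+Ly6G+ fits lacked pools young antibiotic 2, aged control 1 and aged antibiotic 2, Ly6CHigh fits young antibiotic 2, ILC fits aged antibiotic 2 and CD8+ fits young control 2.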

Additional observations from a re-analysis of the deposited data

Results flagged for a closer look

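C5ar1 in Ly6C+Ly6G+ cells moved in opposite directions after antibiotics at the 2 ages. The levels were 2.86, 1.87 and 2.61 in young control pools, 3.00 and 3.03 in the young antibiotic pools with enough cells, 3.40 and 3.30 in aged control pools and 2.58 and 2.27 in aged antibiotic pools. Every young antibiotic pool was above every young control pool, by a log2 change of 0.32, and every aged antibiotic pool was below every aged control pool. In the same way the level was higher in aged than in young controls, by 0.47, and lower in aged than in young antibiotic pools. The limma test of the difference, fitted across all genes, gave an adjusted p of 0.659 for a difference of -0.78 (SE 0.483). In 3 of the 12 pools there were too few of these cells. With 2 or 3 pools per group, groups that do not overlap were common: 18.8% of 6912 genes in the young and 41.1% in the aged antibiotic contrast, 18.1% for age in controls and 37.2% in antibiotic mice. The median change over all genes was 0.20 after antibiotics in young and -0.32 in aged mice.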

How the results depend on the processing

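Alternatives were another pseudocount (0.5 or 0.01 for 0.05), no filter or a filter of 0.01, a log2 mean per cell, rescaled means, cells with at least 2000 raw UMIs, no variance trend, another minimum of cells, a replicate block by hashtag number, and each pool left out. No result reversed. C4b with age in antibiotic microglia and Calr in microglia kept their calls in each alternative run. Members called were 1 in microglia, and 2 with at least 2000 UMIs, 3 with log2 means per cell and 0 without trend or rescaled. In BAM 1 became 2 with at least 20 cells and 0 with log2 means per cell, no filter, no trend or either pseudocount. In Ly6CLow cells 1 became 0 with at least 2000 UMIs and 4 with log2 means per cell. In CD8+ cells 3 became 1 with at least 5 cells or log2 means per cell and 0 with no filter or no trend. In Ly6C+Ly6G+ and B cells 0 became 1 with the filter at 0.01. With the replicate block, over the 3 contrasts it allows, microglia had 1 member called and B cells 5, against 0 in those contrasts without it. Genes called for antibiotics over both ages in microglia were 473, and 209 with no filter and 711 with at least 2000 UMIs. In BAM 5 became 0 with either pseudocount, no filter, no trend or at least 20 cells, and 1 with log2 means per cell. For age in antibiotic Ly6CLow cells 168 became 76 (no filter), 448 (log2 means per cell), 5 (at least 2000 UMIs), 27 (no trend) and 104 (replicate block), and in CD8+ cells 55 became 28 (no filter), 9 (no trend) and 16 (at least 5 cells). CD11b with age in microglia was -0.057 and -0.038 without TMM. The C5ar1 share difference in microglia was -3.17 percentage points after thinning (exact p = 0.12). Leaving out pools gave 0 to 2 members called in BAM and microglia, 0 to 3 in B and CD8+ cells, 0 in ILCs, 0 to 1 in Ly6C+Ly6G+ and Ly6CHigh cells and 1 to 3 in Ly6CLow cells, and genes called of 0 to 8 in BAM, 14 to 180 in CD8+, 51 to 220 in Ly6CLow and 262 to 528 in microglia. CD11b ranged from -0.39 to -0.25 and -0.33 to -0.21, the C4b share from 1.64 to 2.09 and the C5ar1 share from -6.59 to -3.66. The causes were not tested. Tag depth in the aged well and cells per pool in BAM limit what can be detected.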
